A study of Mus musculus with 4 samples.

Results

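The genes described here encode 3 classes of conjugating enzymes: glutathione S-transferases (GST), UDP-glucuronosyltransferases (UGT) and cytosolic sulfotransferases (SULT). They were taken by symbol alone, as every row whose name begins with Gst and a class letter (a, k, m, o, p, t or z), Ugt or Sult, followed by a digit. This gave 63 of the 21878 rows, 21 in each class. RNA was sequenced in 4 libraries of mouse liver cells cultured into a progenitor-like state, 2 started from hepatocytes (HepLPC) and 2 from non-parenchymal cells (NPC_LPC). Per the labels the mice were C57BL/6, aged 6 to 8 weeks (8 weeks in the protocol). The protocol lists, for hepatocytes, tdTomato mice given AAV8-TBG-Cre, a virus whose promoter acts in hepatocytes. For non-parenchymal cells it lists AlbCreERT/R26GFP mice, in which the albumin promoter drives an inducible Cre. Where this list was followed, the line and the virus go with the cell of origin and cannot be told apart from it. All cultures were kept in transition and expansion media. Groups were read from the titles, because the cell type label of HepLPC names both origins. Gene positions are those of RefSeq on GRCm38.p6.

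Conjugation makes lipophilic compounds more soluble and ready for export. GSTs join glutathione to reactive electrophiles, UGTs transfer glucuronic acid from UDP-glucuronic acid in the endoplasmic reticulum, and cytosolic SULTs transfer sulfate from the donor PAPS. Adult hepatocytes express many members of each class, among them bilirubin-conjugating Ugt1a1 and several Ugt2b, Gsta, Gstm and Sult genes. Nuclear receptors and NRF2, which answers electrophiles, are known regulators of these genes.

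Total counts ran from 17575998 to 20625957 per library, with 14070 to 14333 genes detected. Levels of 1 gene across libraries are given in CPM, counts scaled to a library size adjusted by TMM, and levels of different genes are ranked in FPKM, the authors' length-scaled unit. Of 12 hepatocyte markers, 10 had a count in some library and 7 were tested. Log2 fold changes of HepLPC over NPC_LPC were above 0 in 5 of these 7 and below 0 in 2, with a median of 2.05. DESeq2 called Apoa1, Ttr and Hnf4a higher and 0 lower in HepLPC. Together the 12 markers stood at 3934 and 5136 CPM for HepLPC replicates 1 and 2, against 3027 and 1615 CPM in NPC_LPC. Apob had 3453 and 4723 CPM of this for HepLPC, against 2653 and 1470 CPM for NPC_LPC, while Cyp2e1 and Cyp3a11 had no count and Alb, the albumin gene, had at most 41 counts. The 7 biliary markers summed to 4774 and 2214 CPM for HepLPC, against 9504 and 4783 CPM for NPC_LPC. Of the 6 tested, 3 had fold changes above 0 and 3 below, and DESeq2 called Krt19 higher and Spp1 lower in HepLPC. Markers of stellate cells and fibroblasts, of endothelium and of Kupffer cells and leukocytes summed to at most 18.1, 7.44 and 81.7 CPM in any library. In bulk RNA, fewer cells of a type and less RNA per cell cannot be told apart.

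GST genes made up most of the conjugating enzyme RNA, UGT RNA was mainly Ugt2b34 and Ugt1a7c, and most SULT genes had no count. Ugt2b34, Ugt2b35, Gstm2 and Gsta4 were higher in both HepLPC libraries, and Sult4a1 and Gstm5 were lower there, while Gsta3 was highest in a single NPC_LPC library. None of these differences passed the edgeR test over all genes. Within NPC_LPC, replicate 1 exceeded replicate 2 in 26 of the 29 members that passed the filter on low counts.

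A quasi-likelihood test (edgeR, two-sided, Benjamini-Hochberg adjusted over all 12332 genes tested, threshold 0.05) compared HepLPC with NPC_LPC. Of the 63 members, 22 had no count in any library (8 UGT and 14 SULT genes), 39 averaged under 1 CPM and 29 passed the filter on low counts, 18 GST, 7 UGT and 4 SULT genes. edgeR called 0 of these 29, where it called 0.43% of all genes tested (0.227% higher and 0.203% lower in HepLPC), and the smallest adjusted p of a member was 0.106. At an unadjusted p under 0.05, edgeR had 5 of the 29 (Gstm2, Ugt2b34 and Ugt2b35 higher, Gsta3 and Sult4a1 lower in HepLPC) against 21.9% of all genes (10.4% higher, 11.5% lower). DESeq2 called 3 of the 34 members to which it gave an adjusted p, against 11.6% of all genes (5.35% higher, 6.24% lower), namely Gstm2 higher and Gsta3 and Sult4a1 lower. limma-voom called 0 members and 0.0405% of all genes. The libraries of HepLPC and NPC_LPC did not overlap in 9 of the 29 tested members, 7 higher and 2 lower in HepLPC, against 56.4% of all genes (27.9% higher, 28.6% lower). Log2 fold changes of the 29 had a median of 0.05, 15 above 0 and 14 below, beside -0.0030 over all genes. An exact permutation test of 1 value, 2 libraries against 2, reaches p = 0.333 at the lowest. Nothing in the labels ties the replicates to different mice or cultures, so these p-values measure only the spread between the libraries, which may be technical.

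**Figure D1:**
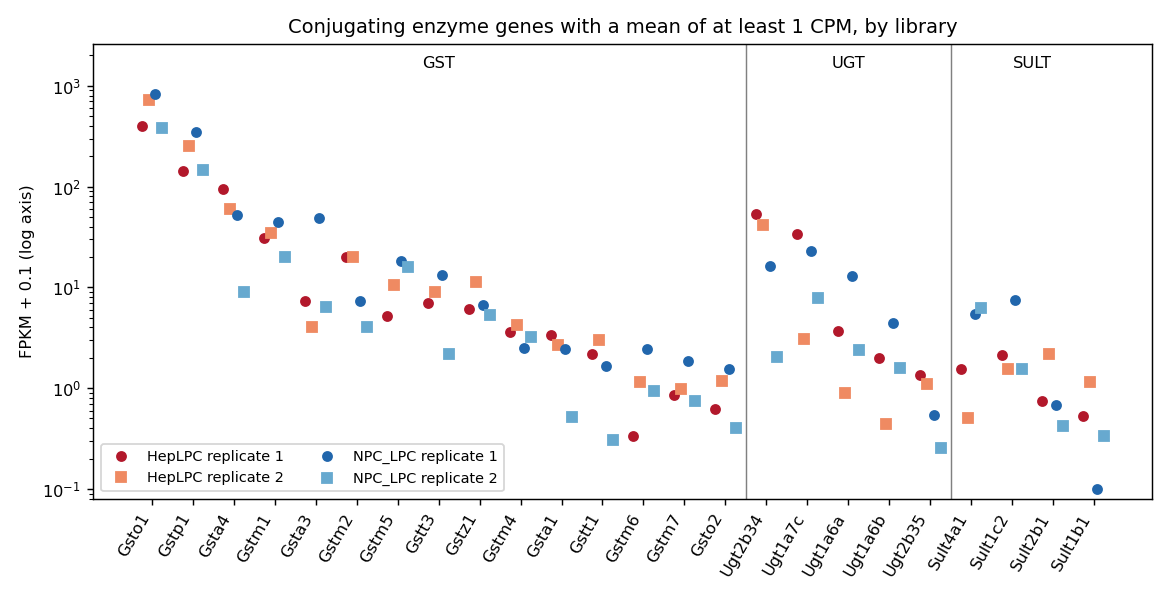
FPKM + 0.1 on a log axis for the 24 members with a mean of at least 1 CPM, by class and in order of mean FPKM. Each point is 1 library, HepLPC in red and orange and NPC_LPC in dark and light blue (replicates 1 and 2). Gsto1 leads in all 4 libraries, and the NPC_LPC replicate 2 point lies below that of replicate 1 for most genes.

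Gsto1 (chromosome 19, 47854973 to 47864790) encodes an omega-class GST that reduces dehydroascorbate and thiol adducts rather than mainly conjugating electrophiles. It stood at 399 and 720 FPKM in HepLPC replicates 1 and 2 and at 835 and 377 FPKM in those of NPC_LPC, rank 56 of 21878 genes by mean FPKM. The highest and the lowest library were both NPC_LPC, so the groups overlapped. Gsto1 held 48.3% and 60.5% of the summed FPKM of all members in HepLPC and 57.3% and 61.3% in NPC_LPC. Its edgeR log2 fold change was -0.08 (SE 0.46; adjusted p = 0.942), and its sign turned without HepLPC replicate 1 or without NPC_LPC replicate 1. The neighbouring Gsto2 was at 0.522 and 1.08 FPKM for HepLPC, against 1.46 and 0.303 FPKM for NPC_LPC.

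Gstp1 (chromosome 19, 4035411 to 4037912), the pi-class enzyme, came next by mean FPKM, with 108 and 182 CPM for HepLPC, against 254 and 108 CPM for NPC_LPC. The groups overlapped again, with NPC_LPC replicate 1 the highest library (edgeR log2 fold change -0.32 with an SE of 0.47, adjusted p = 0.723). Of the 50-base stretches of Gstp1 transcripts, 51.0% also occur in Gstp2, so the split of reads between the pair is uncertain. Gstp2 had 2 to 13 counts per library and was listed at 0 FPKM in all 4.

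The alpha class held 2 genes with opposite patterns. Gsta4 (chromosome 9, 78191966 to 78209349), whose enzyme clears hydroxynonenal, an aldehyde of lipid peroxidation, was at 165 and 94.9 CPM for HepLPC, against 88.2 and 14.1 CPM for NPC_LPC. Both HepLPC libraries were higher, though HepLPC replicate 2 and NPC_LPC replicate 1 lay close together. The edgeR log2 fold change was 1.35 (SE 0.81; adjusted p = 0.382). Without NPC_LPC replicate 1, the log2 fold change was 3.23 and passed the test (adjusted p = 0.0232, where 2.95% of all genes were called), and without NPC_LPC replicate 2 it was 0.56 (adjusted p = 0.578).

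Gsta3 (chromosome 1, 21240565 to 21265575), known in mice for conjugating aflatoxin epoxide, was at 23.2 and 12.2 CPM for HepLPC, against 169 and 22.2 CPM for NPC_LPC. NPC_LPC replicate 1 stood 7.61 times above NPC_LPC replicate 2, which lay just below HepLPC replicate 1. The mean was 17.7 ± 7.77 CPM in HepLPC and 95.4 ± 104 CPM in NPC_LPC (SD, n = 2 each), an edgeR log2 fold change of -2.43 (SE 0.93; adjusted p = 0.209; DESeq2 adjusted p = 0.0199). edgeR called it without NPC_LPC replicate 2 (log2 fold change -3.26, adjusted p = 0.0398, where 0.837% of all genes were called), and without NPC_LPC replicate 1 the log2 fold change was -0.31. The Gsta3 promoter is shown because this gene differs most between the NPC_LPC libraries among the abundant GSTs. It is also 1 of 3 members with the core of the antioxidant response element, the site of NRF2, in the window searched. For the others, Gstm5 and Gstm7, NPC_LPC replicate 1 stood 1.17 and 2.59 times above replicate 2. A link between the core and these ratios was not tested. Capitals mark that core, TGACNNNGC, sought on both strands. It occurred in 3 of 27 GST promoters, in 0 of 19 UGT and 0 of 20 SULT promoters, and in 12.4% of all 32851 promoters of the same length (RefSeq, GRCm38.p6, 250 bases before to 50 after the start).
Gsta3, chr1:21240335-21240634, + strand: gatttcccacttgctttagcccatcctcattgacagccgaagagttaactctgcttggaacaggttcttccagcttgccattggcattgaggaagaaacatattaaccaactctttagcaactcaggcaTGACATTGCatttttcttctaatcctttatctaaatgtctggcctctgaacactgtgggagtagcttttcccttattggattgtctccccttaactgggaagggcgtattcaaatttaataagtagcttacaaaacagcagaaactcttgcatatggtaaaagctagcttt
Gsta1 was at 4.998 and 3.27 CPM for HepLPC, against 3.51 and 0.495 CPM for NPC_LPC. Of its 50-base stretches, 89.7% are found in other genes, so its level is uncertain. Gsta2, with 2 to 30 counts per library, shares 47.4% in the same way.

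The mu-class genes lie on chromosome 3, and their values pointed in different directions. Gstm1 (108012250 to 108017973), the leading mu gene of mouse liver, was at 61.2 and 66.8 CPM for HepLPC, against 86.4 and 41.8 CPM for NPC_LPC, with a mean of 64.0 ± 3.96 CPM in HepLPC and 64.1 ± 31.6 CPM in NPC_LPC (SD, n = 2 each). Its fitted difference was near 0 (SE 0.38 on the log2 scale, edgeR adjusted p = 0.998). Gstm2 (107981702 to 107986420) was at 26.0 and 24.4 CPM for HepLPC, against 9.76 and 5.20 CPM for NPC_LPC. Both HepLPC libraries were higher, 3.37-fold by the means, with an edgeR log2 fold change of 1.75 (SE 0.42; adjusted p = 0.106; DESeq2 adjusted p = 0.00364). Gstm5 (107895854 to 107898685) was lower in both HepLPC libraries, at 4.89 and 10.1 CPM for HepLPC, against 16.7 and 14.3 CPM for NPC_LPC, with no overlap (edgeR log2 fold change -1.05 with an SE of 0.46, adjusted p = 0.26). Its log2 fold change was -0.60 without HepLPC replicate 1 and -1.66 without HepLPC replicate 2. Gstm4 was at 6.55 and 8.34 CPM for HepLPC, against 4.99 and 6.58 CPM for NPC_LPC (edgeR log2 fold change 0.36 with an SE of 0.44, adjusted p = 0.658). Gstm6 had 0.4998 and 1.58 CPM for HepLPC, against 4.004 and 1.24 CPM for NPC_LPC, and Gstm7 had 1.44 and 1.58 CPM for HepLPC, against 3.46 and 1.34 CPM for NPC_LPC. NPC_LPC replicate 1 was the highest library for both. Gstm3 had 12 and 9 counts in HepLPC and none in either NPC_LPC library, where a count of 0 allows up to 0.165 and 0.149 CPM.

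Among the theta, zeta and kappa classes, Gstz1 (chromosome 12, 87147161 to 87164723), the maleylacetoacetate isomerase of tyrosine breakdown, was at 19.7 and 32.9 CPM for HepLPC, against 20.4 and 16.1 CPM for NPC_LPC (edgeR log2 fold change 0.53 with an SE of 0.37, adjusted p = 0.45). The theta gene Gstt3 (chromosome 10, 75774117 to 75781422) was at 11.3 and 15.0 CPM for HepLPC, against 21.9 and 3.66 CPM for NPC_LPC. Its HepLPC libraries lay between those of NPC_LPC (edgeR log2 fold change 0.05 with an SE of 0.80, adjusted p = 0.982). Its neighbour Gstt1 was at 3.61 and 5.69 CPM for HepLPC, against 2.91 and 0.545 CPM for NPC_LPC, without overlap. Gstk1, a mitochondrial and peroxisomal enzyme abundant in adult liver, had 16 and 16 counts in HepLPC and 27 and 10 in NPC_LPC. Gstt2 had 5 and 44 counts in HepLPC and 4 and 2 in NPC_LPC, and Gstt4 had a single count in 1 library.

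The UGT2B genes form a cluster on chromosome 5. Ugt2b34 (86889770 to 86906937), an enzyme of the family that glucuronidates steroids and xenobiotics, was at 200 and 163 CPM for HepLPC, against 64.1 and 7.18 CPM for NPC_LPC. Both HepLPC libraries were higher than both of NPC_LPC, which differed 8.93-fold from each other. The mean was 181 ± 25.9 CPM in HepLPC and 35.7 ± 40.3 CPM in NPC_LPC (SD, n = 2 each), 5.09-fold higher in HepLPC, with an edgeR log2 fold change of 2.35 (SE 0.93; adjusted p = 0.22; DESeq2 adjusted p = 0.264). Without NPC_LPC replicate 1 it was 4.68 and passed the edgeR test (adjusted p = 0.0046), and without NPC_LPC replicate 2 it was 1.5005.

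Ugt2b35 (87000860 to 87013274) was at 3.94 and 3.605 CPM for HepLPC, against 1.37 and 0.495 CPM for NPC_LPC, also higher in both HepLPC libraries. Its edgeR log2 fold change was 2.01 (SE 0.73; adjusted p = 0.195). Ugt2b36, one of the major UGT2B genes of adult mouse liver, had 26 and 13 counts in HepLPC and 6 and 4 in NPC_LPC, again higher in both HepLPC libraries (edgeR log2 fold change 2.02 with an SE of 0.89, adjusted p = 0.258). The other UGT2B genes were near the floor. Ugt2b5 had 24 and 3 counts in HepLPC and 16 and 1 in NPC_LPC, Ugt2b1 had 6 and 4 in HepLPC and none in NPC_LPC, and Ugt2b37 and Ugt2b38 had no count in any library. Ugt2b34 thus carried 95.2% and 96.6% of the summed UGT2B FPKM in HepLPC and 93.9% and 88.3% in NPC_LPC.

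The promoters of 3 UGT2B genes with RNA in these cells and of Ugt2b37, with none, are shown because all hold a common stretch at about the same place. Capitals mark GTTANANNTTAAC, the 13-base stretch with the most letters, 10, shared by all 7 UGT2B promoters.
Ugt2b34, chr5:86906888-86907187, - strand: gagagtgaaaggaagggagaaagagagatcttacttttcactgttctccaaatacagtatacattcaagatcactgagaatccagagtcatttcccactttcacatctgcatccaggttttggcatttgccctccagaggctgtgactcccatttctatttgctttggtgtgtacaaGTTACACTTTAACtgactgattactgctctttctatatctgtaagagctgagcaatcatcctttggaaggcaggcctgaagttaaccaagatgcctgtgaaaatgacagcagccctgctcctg
Ugt2b35, chr5:87000610-87000909, + strand: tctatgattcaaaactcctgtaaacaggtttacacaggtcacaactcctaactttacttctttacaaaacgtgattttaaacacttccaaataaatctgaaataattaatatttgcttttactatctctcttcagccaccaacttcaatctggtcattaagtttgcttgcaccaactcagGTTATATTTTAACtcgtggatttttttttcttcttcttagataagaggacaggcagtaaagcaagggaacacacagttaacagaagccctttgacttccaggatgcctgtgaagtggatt
Ugt2b36, chr5:87092506-87092805, - strand: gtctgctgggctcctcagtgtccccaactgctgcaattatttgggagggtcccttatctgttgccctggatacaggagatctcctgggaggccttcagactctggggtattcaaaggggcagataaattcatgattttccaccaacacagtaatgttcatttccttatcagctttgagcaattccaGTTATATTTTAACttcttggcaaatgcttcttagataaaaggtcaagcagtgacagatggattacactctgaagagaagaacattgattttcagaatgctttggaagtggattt
Ugt2b37, chr5:87254739-87255038, - strand: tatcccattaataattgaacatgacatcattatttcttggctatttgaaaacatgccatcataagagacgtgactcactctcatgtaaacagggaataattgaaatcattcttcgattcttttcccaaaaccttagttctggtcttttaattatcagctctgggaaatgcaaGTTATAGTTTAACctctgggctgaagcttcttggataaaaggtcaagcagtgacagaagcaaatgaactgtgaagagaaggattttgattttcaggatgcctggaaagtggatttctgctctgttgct
On both strands, the stretch occurred in 30 of 32851 RefSeq promoters, or 0.0913%. These included the promoters of all 7 UGT2B genes in the files, expressed or not, and that of Ugt3a1. In the UGT2B genes its first base lay between 89 and 61 bases before the start. It did not occur in the 27 GST or 20 SULT promoters. The letters were taken from these same promoters, so the counts describe them and are no test.

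The UGT1A genes on chromosome 1 are alternative first exons joined to a shared set of later exons. Between 54.2% and 96.0% of the 50-base stretches of each UGT1A gene are found in another gene, so counts depend on how shared reads were assigned, a setting that the sources used here do not give. Ugt1a7c (88095001 to 88220002) was at 52.0 and 4.17 CPM for HepLPC, against 32.3 and 10.4 CPM for NPC_LPC. The HepLPC libraries were the highest and the lowest of the 4, 12.5-fold apart, and the groups did not differ beyond that spread (edgeR log2 fold change 0.40 with an SE of 1.11, adjusted p = 0.864). Ugt1a6a, of a group that conjugates planar phenols, was at 6.83 and 1.01 CPM for HepLPC, against 21.7 and 4.26 CPM for NPC_LPC (edgeR log2 fold change -1.72 with an SE of 1.09, adjusted p = 0.403). Its log2 fold change was -0.10 without NPC_LPC replicate 1 and -3.66 without HepLPC replicate 1. Ugt1a6b was at 1.55 and 0.225 CPM for HepLPC, against 3.02 and 1.09 CPM for NPC_LPC. In both groups replicate 1 was above replicate 2 for all 3 of these genes. Ugt1a1, the bilirubin enzyme, had 6 and 7 counts in HepLPC and 50 and 5 in NPC_LPC. Ugt1a2, Ugt1a5, Ugt1a9 and Ugt1a10 had at most 7 counts.

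Outside these families almost no UGT reads were counted. Ugt2a1, Ugt2a2, Ugt2a3, Ugt3a1 and Ugt3a2 had no count, and Ugt8a, which makes galactosylceramide rather than a glucuronide, had 1 to 24 counts per library. The summed UGT level was 268 and 174 CPM for HepLPC, against 127 and 25.1 CPM for NPC_LPC, without overlap and 2.90-fold higher in HepLPC. In summed FPKM it was 95.5 and 47.3 for HepLPC, against 59.6 and 14.3 for NPC_LPC, and the groups overlapped. The log2 ratio was 1.54 in CPM and 0.95 in summed FPKM, and in CPM it was 3.14 without NPC_LPC replicate 1 and 0.80 without NPC_LPC replicate 2. With Ugt2b34 left out, the sums were 68.2 and 10.7 CPM for HepLPC, against 63.0 and 17.9 CPM for NPC_LPC.

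**Figure D2:**
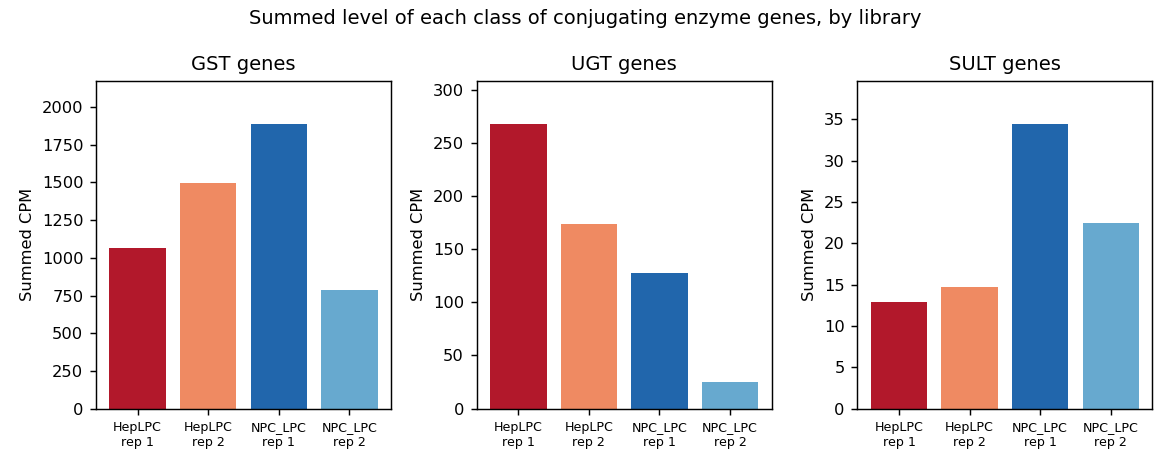
Summed CPM of all GST, UGT and SULT genes in each library, HepLPC in red and orange and NPC_LPC in dark and light blue (replicates 1 and 2), with a separate linear axis from 0 in each panel. GST sums overlap between the groups, UGT sums are higher and SULT sums lower in both HepLPC libraries than in both NPC_LPC libraries. In summed FPKM, which is not drawn, the UGT groups overlap.

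SULT RNA was scarce. Of the 21 genes 14 had no count in any library, among them all 8 Sult2a genes, which sulfate bile acids and steroids in adult liver, and the oestrogen sulfotransferase Sult1e1. A count of 0 allows up to 0.149 to 0.169 CPM, depending on the library. Sult1a1, the main phenol sulfotransferase of liver, had 7 and 0 counts in HepLPC and 10 and 4 in NPC_LPC. Sult1d1 had 4 and 8 counts in HepLPC and none in NPC_LPC, and Sult6b1 had 2 counts in a single HepLPC library. The summed SULT level was 12.9 and 14.8 CPM for HepLPC, against 34.4 and 22.5 CPM for NPC_LPC. With Sult4a1 left out, the sums were 9.16 and 13.6 CPM for HepLPC, against 19.7 and 5.64 CPM for NPC_LPC, which overlap.

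Sult4a1 (chromosome 15, 84076097 to 84105754), a sulfotransferase-like gene known mainly from brain, had the lowest adjusted p of all members. It was at 3.72 and 1.13 CPM for HepLPC, against 14.8 and 16.8 CPM for NPC_LPC. Both HepLPC libraries were lower, and the NPC_LPC libraries lay close together, unlike those of most members. The mean was 2.42 ± 1.83 CPM in HepLPC and 15.8 ± 1.47 CPM in NPC_LPC (SD, n = 2 each), an edgeR log2 fold change of -2.70 (SE 0.64; adjusted p = 0.106; DESeq2 adjusted p = 9.16e-04). With no filter on low counts edgeR called it, at an adjusted p of 0.0485, where 3.74% of all genes were called.

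Sult1c2 (chromosome 17, 53829637 to 53845958), a phenol sulfotransferase, was at 4.998 and 3.49 CPM for HepLPC, against 17.2 and 3.71 CPM for NPC_LPC. A single NPC_LPC library stood apart (edgeR log2 fold change -1.30 with an SE of 0.77, adjusted p = 0.373), and without it the log2 fold change was 0.21. Sult2b1, the cholesterol sulfotransferase, was at 1.55 and 5.80 CPM for HepLPC, against 1.97 and 1.04 CPM for NPC_LPC, with overlap. Sult1b1, a thyroid hormone sulfotransferase, had 36 and 67 counts in HepLPC and 0 and 14 in NPC_LPC (edgeR log2 fold change 3.01 with an SE of 1.38, adjusted p = 0.271). Its log2 fold change was 2.07 without NPC_LPC replicate 1, and without NPC_LPC replicate 2 the remaining NPC_LPC library had no count.

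**Figure D3:**
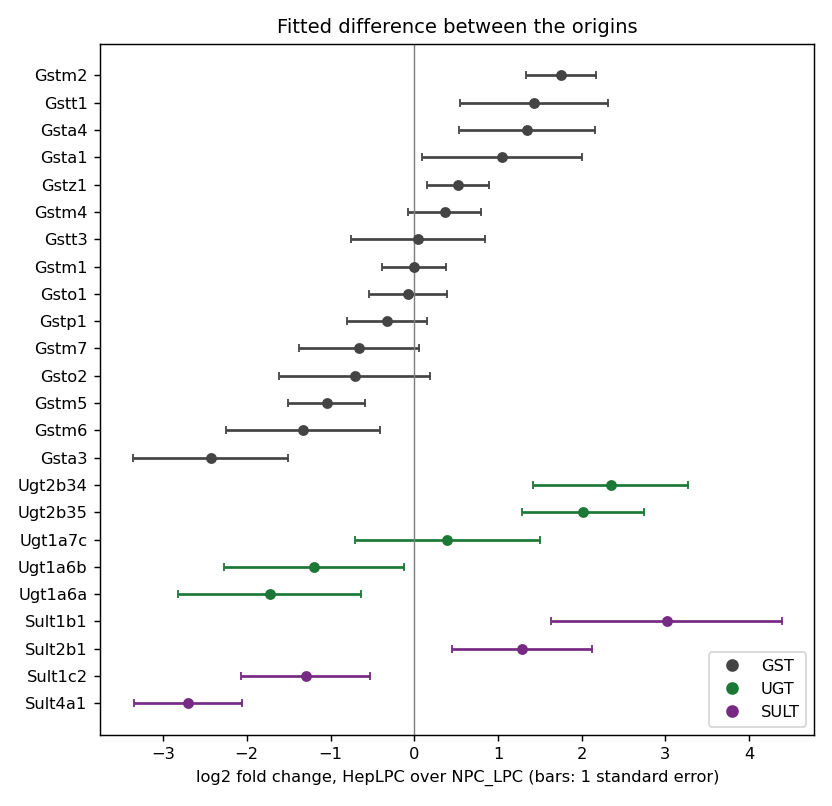
Log2 fold change of HepLPC over NPC_LPC from edgeR for the 24 members with a mean of at least 1 CPM, with bars of 1 standard error, ordered within each class. GST values lie on both sides of 0 from 1.75 for Gstm2 to -2.43 for Gsta3, and no gene shown passed the test over all genes.

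The NPC_LPC libraries differed from each other in one direction. NPC_LPC replicate 1 was above replicate 2 in 26 of the 29 tested members, 17 of 18 GST, 7 of 7 UGT and 2 of 4 SULT genes, where 46.7% of all genes tested were. The median ratio of the 29, on CPM + 0.5, was 2.19, beside 0.975 over all genes. The ratio was above 2 in 19 of the 29 members, against 6.16% of all genes. In HepLPC, replicate 1 was the higher in 14 of 29 members, beside 49.4% of all genes, with a median ratio of 0.991. The 7 tested UGT genes were nonetheless all higher in HepLPC replicate 1, and 5 of 18 GST genes were. These are counts within a group and no test, and members of 1 cluster with shared sequence are not independent.

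Marker sums also differed between the NPC_LPC libraries, some in the same direction as most members and some in the opposite. The 12 hepatocyte markers summed to 3027 CPM in NPC_LPC replicate 1 and 1615 CPM in replicate 2, the 7 biliary markers to 9504 and 4783 CPM, the 4 mesothelial markers to 579 and 232 CPM, and the 7 Kupffer cell and leukocyte markers to 81.7 and 21.6 CPM, of which Cd68 had 79.7 and 20.3 CPM, with Clec4f and Cd3e at 0. The 9 markers of stellate cells and fibroblasts summed to 5.38 and 18.1 CPM, with Lrat at 0, and the 4 proliferation markers to 631 and 1186 CPM, in the opposite order. The 6 endothelial markers, at 2.30 and 3.61 CPM, were also higher in NPC_LPC replicate 2. In HepLPC replicates 1 and 2 the mesothelial list summed to 199 and 788 CPM, the Kupffer cell and leukocyte list to 25.8 and 16.9 CPM, the stellate list to 14.1 and 8.62 CPM and the proliferation list to 1688 and 949 CPM. The part of these cell types in the differences of the members was not tested.

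**Figure D4:**
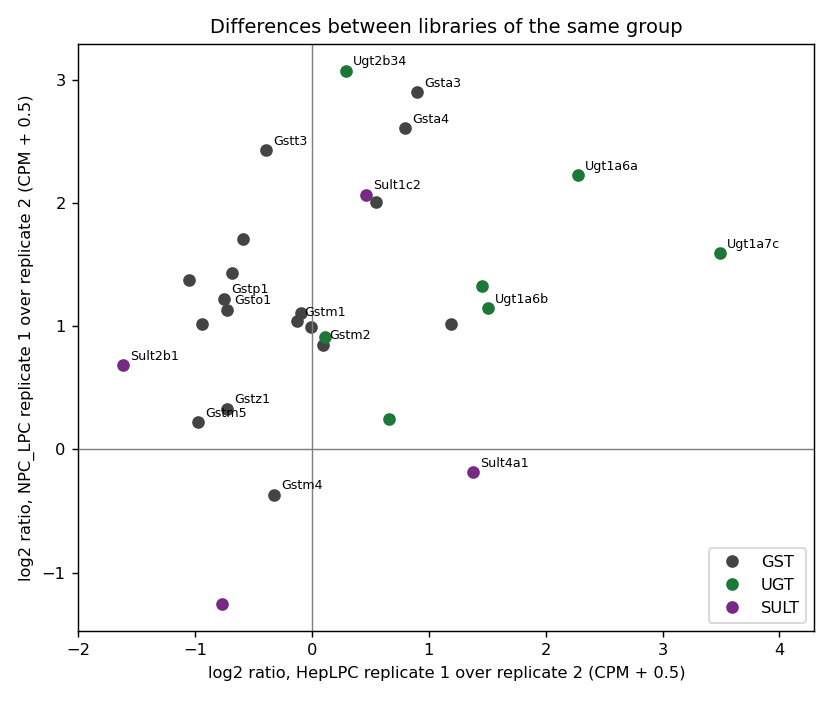
Log2 ratio of replicate 1 over replicate 2 on CPM + 0.5, in HepLPC (horizontal) and in NPC_LPC (vertical), for the 29 tested members. Of these 26 lie above 0 on the vertical axis, while they fall on both sides of 0 on the horizontal axis, where all 7 UGT genes are to the right.

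In the list for glutathione synthesis, recycling and breakdown, edgeR called 0 of 18 tested genes (5 at an unadjusted p under 0.05). DESeq2 called 2 higher (Oplah and Chac1) and 1 lower (Glrx) in HepLPC, and the median log2 fold change was 0.40. For this and the following lists, the shares over all genes were 0.43% called by edgeR and 11.6% called by DESeq2. At an unadjusted p under 0.05 in edgeR the share was 21.9%. Gclc, the catalytic subunit of the first and limiting step, was at 1532 and 1039 CPM for HepLPC, against 2511 and 911 CPM for NPC_LPC. The glutathione peroxidase gene Gpx1 was at 311 and 314 CPM for HepLPC, against 189 and 283 CPM for NPC_LPC. The cystine importer gene Slc7a11 was at 114 and 69.5 CPM for HepLPC, against 162 and 32.0 CPM for NPC_LPC. Within NPC_LPC, replicate 1 was the higher for Gclc and Slc7a11, and replicate 2 for Gpx1. Glrx was at 12.6 and 12.4 CPM for HepLPC, against 71.0 and 54.0 CPM for NPC_LPC. Its edgeR log2 fold change was -2.32 with an SE of 0.29 (edgeR adjusted p = 0.0504, DESeq2 adjusted p = 4.97e-09). Of 9 tested membrane-bound and other glutathione transferases outside the symbol rule, edgeR called 0 (6 at an unadjusted p under 0.05) and DESeq2 2 higher (Ptges and Hpgds) and 2 lower (Mgst1 and Clic4), with a median of 0.73. Clic1 and Clic4, chloride channel proteins with a GST fold, were at 296 and 375 CPM and at 189 and 232 CPM in HepLPC, against 274 and 409 CPM and 352 and 484 CPM in NPC_LPC.

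For UDP-glucuronic acid supply, edgeR called 0 of 12 tested genes (2 at an unadjusted p under 0.05) and DESeq2 1, with a median log2 fold change of -0.14. The gene DESeq2 called was Ugdh, whose enzyme oxidises UDP-glucose to UDP-glucuronic acid. Ugdh was at 1038 and 1332 CPM for HepLPC, against 451 and 255 CPM for NPC_LPC. Both HepLPC libraries were higher, 3.36-fold by the means (edgeR log2 fold change 1.75 with an SE of 0.37, adjusted p = 0.0899; DESeq2 adjusted p = 1.99e-04). The edgeR log2 fold change of Ugdh was 2.24 without NPC_LPC replicate 1 and 1.39 without NPC_LPC replicate 2. Hk1, a hexokinase, was at 302 and 537 CPM for HepLPC, against 705 and 531 CPM for NPC_LPC.

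For PAPS supply, edgeR called 0 of 10 tested genes (4 at an unadjusted p under 0.05) and DESeq2 3, all higher in HepLPC (Papss2, Bpnt1 and Slc26a2), with a median of 0.11. Papss2, a PAPS synthase, was at 70.5 and 88.9 CPM for HepLPC, against 18.7 and 6.19 CPM for NPC_LPC (edgeR log2 fold change 2.68 with an SE of 0.55, adjusted p = 0.0867; DESeq2 adjusted p = 3.56e-05). The sulfate transporter Slc26a2 was at 272 and 284 CPM for HepLPC, against 82.0 and 31.7 CPM for NPC_LPC (edgeR log2 fold change 2.29 with an SE of 0.47, adjusted p = 0.0867; DESeq2 adjusted p = 6.47e-05). Without NPC_LPC replicate 1, edgeR called Papss2 (log2 fold change 3.70, adjusted p = 0.0114) and Slc26a2 (3.15, adjusted p = 0.0128), and without NPC_LPC replicate 2 their log2 fold changes were 2.09 and 1.76. Tpst2, which sulfates protein tyrosines, was at 63.3 and 82.3 CPM for HepLPC, against 55.8 and 59.9 CPM for NPC_LPC. Mean FPKM over the 4 libraries was 25.8 for Slc26a2 and 4.49 for Papss2, beside 3.36 for Sult4a1 and 3.07 for Sult1c2. Sult1c2 was above Sult4a1 by FPKM in every library except NPC_LPC replicate 2.

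Among conjugate exporters edgeR called 0 of 9 tested genes (3 at an unadjusted p under 0.05) and DESeq2 1 in each direction, with a median of 0.35. Abcc4 was at 262 and 325 CPM for HepLPC, against 609 and 1260 CPM for NPC_LPC, with NPC_LPC replicate 2 the highest (edgeR log2 fold change -1.67 with an SE of 0.41, adjusted p = 0.112; DESeq2 adjusted p = 0.0016). Abcc1 was at 177 and 134 CPM for HepLPC, against 269 and 224 CPM for NPC_LPC. Abcc3, an exporter of glucuronides on the basolateral side, was at 344 and 201 CPM for HepLPC, against 93.2 and 19.9 CPM for NPC_LPC (edgeR log2 fold change 2.27 with an SE of 0.73, adjusted p = 0.168; DESeq2 adjusted p = 0.00706). Without NPC_LPC replicate 1, edgeR called Abcc3 (log2 fold change 3.79, adjusted p = 0.0157) and Abcc4 (-2.08, adjusted p = 0.0321), and without NPC_LPC replicate 2 their log2 fold changes were 1.55 and -1.05. The 4 libraries stood in the same order for Abcc3 as for Ugt2b34. Of 11 tested deconjugating enzymes, edgeR called 0 (2 at an unadjusted p under 0.05) and DESeq2 1, lower in HepLPC. The acid ceramidase gene Asah1 was at 190 and 281 CPM for HepLPC, against 483 and 310 CPM for NPC_LPC. The median of this list was -0.47. Of 12 tested other phase II enzymes edgeR called 0 (1 at an unadjusted p under 0.05) and DESeq2 1 lower (Nnmt), with a median of -0.07. Ephx1, the microsomal epoxide hydrolase, was at 397 and 422 CPM for HepLPC, against 564 and 268 CPM for NPC_LPC.

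Of 23 tested regulators of conjugating enzymes, edgeR called 2, both higher in HepLPC, against 0.43% of all genes. At an unadjusted p under 0.05 it had 9, against 21.9% of all genes. DESeq2 called 7 higher and 1 lower, against 5.35% and 6.24% of all genes. The median log2 fold change was 0.23. Cebpa, a factor of hepatocyte differentiation, was at 29.7 and 21.9 CPM for HepLPC, against 1.48 and 0.792 CPM for NPC_LPC (edgeR log2 fold change 4.50 with an SE of 0.50, adjusted p = 0.0419). The intestinal factor Cdx2 was at 32.9 and 29.3 CPM for HepLPC, against 3.35 and 4.41 CPM for NPC_LPC (edgeR log2 fold change 3.0005 with an SE of 0.35, adjusted p = 0.0466). edgeR called neither without HepLPC replicate 1 or without HepLPC replicate 2, where it called 0 genes in all, and it did not call Cdx2 without NPC_LPC replicate 2 (adjusted p = 0.0526). Nfe2l2, which encodes NRF2, was at 717 and 434 CPM for HepLPC, against 734 and 702 CPM for NPC_LPC. The aryl hydrocarbon receptor gene Ahr was at 96.1 and 99.9 CPM for HepLPC, against 392 and 137 CPM for NPC_LPC (edgeR log2 fold change -1.43 with an SE of 0.50, adjusted p = 0.187; DESeq2 adjusted p = 0.0427), and the log2 fold change was -0.46 without NPC_LPC replicate 1. The xenobiotic receptors Nr1i2 (PXR) and Nr1i3 (CAR) had at most 9 counts and 1 count in any library.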

How the data were processed

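RNA of 4 libraries was measured by sequencing. Libraries came from a stranded mRNA kit, per the labels' protocols. The build mm10 and Trimmomatic, HISAT2, Cufflinks, HTSeq and DESeq are named in the submitters' processing notes. The sources used here do not give versions, annotation or strand setting. The authors deposited a read count and an FPKM value per gene symbol for each library, in tables with the same 21878 rows.

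Counts were tested with edgeR 4.0.16 in R 4.3.3 (TMM, filterByExpr, quasi-likelihood test, group as the only term), checked on simulated counts. Standard errors come from the F statistic. DESeq2 1.42.0, limma-voom (limma 3.58.1), other scalings and filters, a replicate block, limma on log2 FPKM and leaving out each library were alternatives. A floor of 3 counts, 0.149 to 0.169 CPM, was used for a count of 0, and covers counting error only.

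Members with a mean of at least 1 CPM were named with every library's value, and those of at least 5 CPM with their test. Pathway lists gave their called members or the 2 with the highest mean FPKM. Slc7a11, Papss2, Abcc3, Krt19, Spp1, Apob, Cd68, Nfe2l2, Ahr, Nr1i2, Nr1i3 and members under 1 CPM and genes called by DESeq2 alone were named after their values were seen. The members, lists and tests were chosen with earlier results of these data known.

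All 63 symbols matched RefSeq (GRCm38.p6, the assembly called mm10), and 55 had a promoter there. Stretches of 50 bases were taken from the coding transcripts of each member in GENCODE M21. They were sought in all transcripts of other genes there, pseudogenes included. Explanations for differences were not weighed. Some genes of the pathway lists are not reported here.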

Additional observations from a re-analysis of the deposited data

How the results depend on the processing

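edgeR called 0 members in either direction and 53 genes in all. DESeq2 called 1521 genes (1 member higher, 2 lower in HepLPC), limma-voom 5, edgeR with no filter on low counts 593 (1 member lower), limma on log2(FPKM + 1) 111 with a mean FPKM of at least 0.5 and 0 without that filter. Leaving out 1 library gave 0 to 377 genes, 0 to 2 members higher and 0 to 1 lower. The higher ones were Gsta4 and Ugt2b34 without NPC_LPC replicate 1, the lower one Gsta3 without NPC_LPC replicate 2. The summed SULT level had a log2 ratio of -1.04, and -0.15 without Sult4a1. The replicate number as a block gave 136 genes and 0 members. Same-numbered libraries deviated with a correlation of -0.0169 over 12332 genes. With 1 difference per group, this cannot tell whether same-numbered libraries shared a mouse, a culture or a batch.

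Of 358 alternative values for 24 named genes, 324 kept their direction and side of the threshold, 7 passed it and 27, in 8 genes, changed sign, none of these past the threshold. Gstm1, near 0 at first, had log2 fold changes of 0.0019 with RLE factors, 0.0096 with upper-quartile factors, 0.00092 with DESeq2, 0.093 with limma-voom, 0.089 with the block and 0.13 (0.13 with a pseudocount of 0.1, 0.13 without the filter) on FPKM. Ugt1a7c had -0.28 with limma-voom, -0.29 with the block and -0.30, -0.40 and -0.30 in the same FPKM settings. Gsto2 had 0.11 on log2(FPKM + 0.1). Leaving out 1 library moved the log2 fold change from -0.43 to 0.63 for Gstm1, -1.19 to 0.19 for Gstm7, -0.54 to 0.62 for Gsto1, -1.38 to 0.57 for Gsto2, -0.81 to 0.44 for Gstp1, -0.73 to 1.86 for Gstt3, -2.02 to 0.21 for Sult1c2 and -2.35 to 1.45 for Ugt1a7c. A fit with 1 library in a group assumes that it varies like the other group. Apart from these fits, the cause was not tested. Of the 39 members under 1 CPM, 34 were untested by edgeR and 22 had no count. For these, limited depth, shared sequence and absence of RNA cannot be told apart.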
